A study of Mus musculus with 21 samples.

Results

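Heat shock proteins and chaperones bind other proteins while these fold, cross membranes or are damaged, and 10 genes of this kind were examined in podocyte fractions of mouse kidneys. The genes were given by name, and each symbol was matched to its gene number in the count tables, so that 10 of 27179 listed genes are described. Of these, 6 encode proteins of the cytosol (Hspa1a, Hspa1b, Hsph1, Dnajb1, Hspb1 and Hsp90aa1), 1 a protein of the endoplasmic reticulum (ER; Hspa5) and 3 proteins of the mitochondria (Hspd1, Hspe1 and Hspa9). All 10 passed the filter on low counts and were among the 16377 genes tested. The mice were male wild-type C57BL/6J. The young group had 6 libraries of untreated mice of 4 months by the labels, while the study's methods name fewer control mice of that age. Both middle-aged groups were injected for 6 weeks from 18 months of age and collected at 19.5 months, 7 mice with saline and 8 with MCC950, a small molecule that inhibits the NLRP3 inflammasome, at 10 mg/kg. Cortex was digested with enzymes in the warm, cells were bound by antibodies to nephrin, a protein of the podocyte slit diaphragm, and collected on magnetic beads, with 1 library made per mouse as the study describes it. Since the young mice were not injected, age and injection cannot be told apart.

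The cytosolic heat shock response is switched on when unfolded proteins free heat shock factor 1 (Hsf1), which binds arrays of the letters GAA in promoters and raises the inducible Hsp70 genes Hspa1a and Hspa1b within minutes to hours. Unfolded proteins in the ER instead activate the sensors Ire1, Perk and Atf6, and Hspa5 (BiP, the Hsp70 of the ER) is the classical target of that response. Mitochondria hold their own set, in which Hspa9 (mortalin) draws proteins in and Hspd1 (Hsp60) with its lid Hspe1 (Hsp10) folds them. Warm digestion of tissue is itself known to induce heat shock and immediate early genes, and kidney without digestion was not analysed here.

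Total counts ran from 27375870 to 36827823 in young libraries, from 45772937 to 84876399 in saline libraries and from 35440472 to 58247271 in MCC950 libraries, so every saline library was deeper than every young one. Genes of the mitochondrial genome held a median of 71.1%, 68.6% and 57.5% of these counts. Levels below are CPM, read counts scaled to a common library size (TMM-adjusted). The 12 podocyte markers, such as Nphs1 and Wt1, summed to between 814.3 and 1800 CPM in young, 315.0 and 596.2 in saline and 419.8 and 703.7 CPM in MCC950 libraries, and 11 of 12 fell in saline against young libraries. The 12 proximal tubule markers were all detected, and they summed to a median of 3351 CPM in young, 3162 in saline and 5413 in MCC950 libraries, so the fractions also held RNA of tubule cells. With age 0 of the 12 passed the test in edgeR (1 was lower at an unadjusted p under 0.05 and in DESeq2), and 8 of 12 rose in MCC950 against saline libraries. Other cell types moved with age as well: 7 of 8 endothelial markers (median log2 fold change -1.07), 5 of 7 mesangial and smooth muscle markers (-1.12) and 4 of 7 collecting duct markers (-0.59) fell in saline against young libraries, and 3 of 8 macrophage, 3 of 7 T cell and 3 of 6 B and plasma cell markers rose, among them Jchain by 3.64. In MCC950 against saline libraries 1 of the 8 endothelial markers fell and 0 of the 7 mesangial markers were called in edgeR, with 2 lower in DESeq2 and at an unadjusted p under 0.05. In bulk libraries of this kind, fewer cells of a type and less RNA per cell cannot be told apart. Nlrp3, whose protein the drug inhibits, had a median of 22.6 CPM in young, 37.8 in saline and 40.0 in MCC950 libraries.

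With age, 2 of the 10 genes fell and 0 rose, both of them cytosolic: Hspb1 and Hsph1 were lower in saline than in young libraries. With MCC950, 5 of 10 rose against saline and 0 fell: Hsph1 of the cytosol, Hspa5 of the ER and all 3 mitochondrial genes. Against young libraries, the MCC950 libraries had higher Hspd1, Hspe1 and Hspa9 and lower Hspb1, or 3 of 10 higher and 1 lower. Calls were made at a Benjamini-Hochberg adjusted p under 0.05 in edgeR's quasi-likelihood test over all genes. By that rule 12.2% of all genes tested were higher and 12.4% lower in saline against young, 11.9% were higher and 4.86% lower in MCC950 against saline, and 21.8% were higher and 16.5% lower in MCC950 against young libraries. Exact two-sided permutation tests of mean log2 CPM gave unadjusted p between 0.000932 and 0.00497 for the 5 members that rose with MCC950, 0.00117 for Hsph1 and 0.00583 for Hspb1 with age, and 0.0315 for Dnajb1 with age, which edgeR did not call. An unadjusted p under 0.05 in edgeR and the test of DESeq2 gave the same numbers of members in each direction, including the counts of 0. The 2 of 10 genes that fell with age thus stood near the share of all genes, and the 5 of 10 that rose with MCC950 stood above it. The median log2 fold change of the 6 cytosolic genes was -0.47 with age and 0.02 with MCC950 against saline, and that of the 3 mitochondrial genes was 0.00 and 0.48, beside 0.02 and 0.00 over all genes tested. The difference between compartments was not tested. The comparisons share libraries, so their values are set side by side and not correlated.

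**Figure D1:**
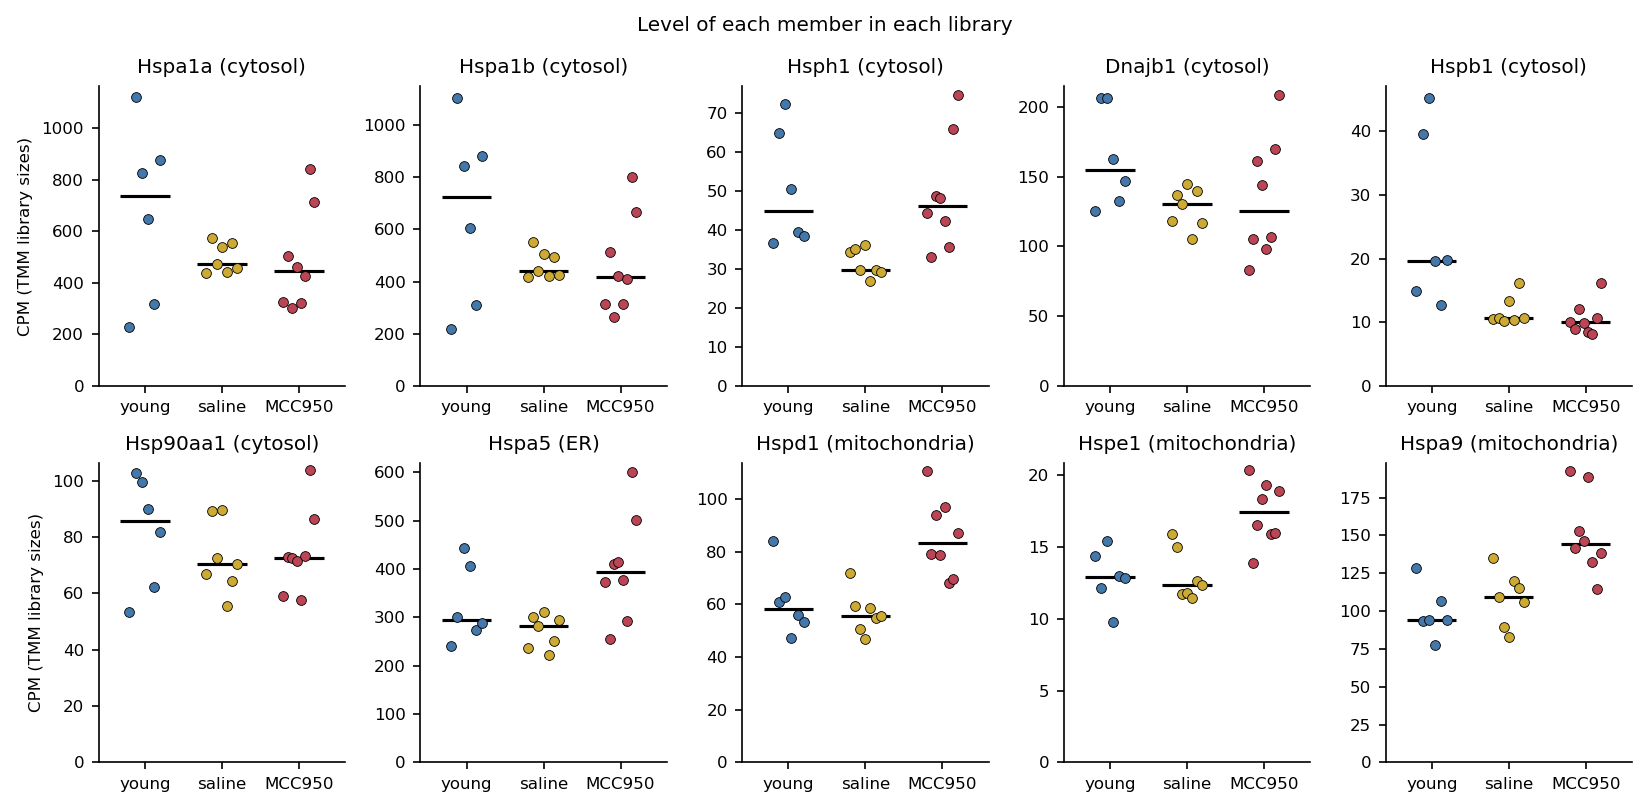
Level of each of the 10 genes in CPM (vertical axis, from 0) in each library of the young (blue, 6), saline (yellow, 7) and MCC950 (red, 8) groups. Each point is 1 library and the bar is the group median. The mitochondrial genes and Hspa5 are highest in MCC950 libraries, Hspb1 is highest in young libraries, and Hspa1a and Hspa1b spread widely in young libraries, from 229.6 to 1118 CPM for Hspa1a.

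Hspa1a and Hspa1b, the inducible Hsp70 genes, lie beside each other on chromosome 17 (GRCm38, 34969359-34972156 and 34956429-34959238, both on the minus strand) and encode almost the same protein. The 250 bases before their starts are printed because the promoters too are near copies. They share 98.8% of bases and differ as C44T, T47C and T249G, Hspa1a first, counted from 1 at the 5′ end. Capitals mark the heat shock pair, searched as GAANNTTC or TTCNNGAA on both strands, which are the same letters on either strand. RefSeq (GRCm38.p6) is the source of these and all later promoter sequences.
Hspa1a, chr17:34972157-34972406, minus strand: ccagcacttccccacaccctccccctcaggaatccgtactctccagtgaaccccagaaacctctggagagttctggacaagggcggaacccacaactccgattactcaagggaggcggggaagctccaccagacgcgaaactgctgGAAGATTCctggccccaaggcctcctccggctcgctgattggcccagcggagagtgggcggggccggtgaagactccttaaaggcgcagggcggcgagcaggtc
Hspa1b, chr17:34959239-34959488, minus strand: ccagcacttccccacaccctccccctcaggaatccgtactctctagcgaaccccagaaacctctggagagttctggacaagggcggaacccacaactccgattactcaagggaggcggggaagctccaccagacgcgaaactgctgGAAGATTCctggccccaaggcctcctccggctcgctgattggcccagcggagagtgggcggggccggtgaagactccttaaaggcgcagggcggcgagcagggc
Each window held 1 pair. Of 32851 promoter windows of 250 bases in RefSeq, 12.8% held at least 1. A match to these letters is a description and no evidence of binding.

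Hspa1a ranged from 229.6 to 1118 CPM around a median of 737.2 in young libraries, from 438.9 to 573.3 around 473.9 in saline libraries, and from 302.5 to 838.9 around 443.7 CPM in MCC950 libraries. Hspa1b ranged from 219.5 to 1105 CPM (median 724.8) in young, from 416.2 to 550.8 (442.0) in saline and from 264.9 to 802.8 (416.1) in MCC950 libraries. For both genes 4 young libraries lay above and 2 below the whole saline range, so that the narrow saline range sat inside the wide young range with no young library in it. What differed most was the spread: the coefficient of variation of Hspa1a was 51.2% in young, 11.5% in saline and 40.2% in MCC950 libraries, and this difference in spread was not tested. The log2 fold change of Hspa1a was -0.43 ± 0.30 (SE) in saline against young (edgeR adjusted p = 0.310) and -0.03 ± 0.28 in MCC950 against saline (edgeR adjusted p = 0.954), where the 95% interval ran from -0.60 to 0.54. Hspa1b gave -0.50 ± 0.30 (edgeR adjusted p = 0.236) and -0.01 ± 0.28 (edgeR adjusted p = 0.991). Of the windows of 50 bases along the Hspa1a transcript, 58.8% also occur in Hspa1b, so reads can be split between both genes, and the ratio of Hspa1a to Hspa1b counts stayed between 0.979 and 1.14 in the 21 libraries. Summed over both rows, the log2 fold change was -0.47 ± 0.30 with age (edgeR adjusted p = 0.274), -0.02 ± 0.28 with MCC950 against saline (edgeR adjusted p = 0.972) and -0.49 ± 0.29 in MCC950 against young libraries (edgeR adjusted p = 0.192).

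Hsph1 (Hsp110 or Hsp105), which exchanges the nucleotide of Hsp70 and helps it to dissolve aggregates, was the cytosolic gene that moved in both comparisons. It ranged from 36.7 to 72.3 CPM (median 44.9) in young, from 26.8 to 36.05 (29.7) in saline and from 33.0 to 74.5 (46.2) in MCC950 libraries. Every saline library lay below every young one, and 6 of 8 MCC950 libraries lay above the whole saline range. Its level was 0.627 of young in saline libraries (log2 fold change -0.67 ± 0.18, edgeR adjusted p = 0.0104) and 1.55-fold that of saline in MCC950 libraries (0.64 ± 0.17, edgeR adjusted p = 0.0167). Against young libraries MCC950 libraries gave -0.04 ± 0.18 (edgeR adjusted p = 0.889), with a 95% interval from -0.41 to 0.33. Without young replicate 3, the highest young library, the fall with age was -0.54 and no longer passed (edgeR adjusted p = 0.0522). MCC950 replicates 7 and 8 were the highest of that group for Hsph1, Hspa1a, Hspa1b, Dnajb1, Hsp90aa1 and Hspa5, while their proximal tubule markers summed to 2880 and 4670 CPM, below the group median of 5413. Their 12 immediate early genes summed to 8792 and 8073 CPM, above the group median of 6733, and those of replicate 4 to 8594. A relation to either sum was not tested. Without replicate 8, the rise of Hsph1 was 0.53, and over the 21 libraries left out in turn its adjusted p in edgeR reached at most 0.0477.

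Hspb1 (Hsp25, a small heat shock protein that holds unfolded proteins and binds actin filaments) fell furthest with age. It ranged from 12.7 to 45.3 CPM (median 19.7) in young, from 10.3 to 16.1 (10.6) in saline and from 8.11 to 16.2 (9.97) in MCC950 libraries. In saline 5 of 7 and in MCC950 7 of 8 libraries lay below the whole young range, and the saline and MCC950 ranges overlapped. The saline level was 0.461 of young (log2 fold change -1.12 ± 0.24, edgeR adjusted p = 0.00233) and the MCC950 level 0.416 of young (-1.26 ± 0.24, edgeR adjusted p = 0.000362). Between MCC950 and saline the value was -0.15 ± 0.23 (edgeR adjusted p = 0.694). Podocyte markers fell in the same libraries: with their mean log2 level as a covariate, Hspb1 gave -0.07 with age (edgeR adjusted p = 0.949) and Hsph1 -0.18 (edgeR adjusted p = 0.803). In that fit 12 of 16377 genes were called with age, and the podocyte marker sums of young and saline libraries do not overlap. Endothelial and mesangial markers fell in the same libraries, and their part in the fall of Hspb1 and Hsph1 was not tested. A fall of Hspb1 within podocytes and a smaller share of any of these cells therefore cannot be told apart. Against young libraries the fall of Hspb1 in MCC950 libraries was -0.48 with the podocyte covariate and lost its call (edgeR adjusted p = 0.512). In that comparison the podocyte fit called 103 of 16377 genes higher and 240 lower. The Hspb1 count is also less certain because 51.6% of its transcript windows occur in the pseudogene Hsp25-ps1.

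The promoters of Hspb1 and Hsph1 are shown because these are the members that fell with age. Capitals again mark the heat shock pair, of which Hspb1 held 2 and Hsph1 held 1.
Hspb1, chr5:135887669-135887918, plus strand: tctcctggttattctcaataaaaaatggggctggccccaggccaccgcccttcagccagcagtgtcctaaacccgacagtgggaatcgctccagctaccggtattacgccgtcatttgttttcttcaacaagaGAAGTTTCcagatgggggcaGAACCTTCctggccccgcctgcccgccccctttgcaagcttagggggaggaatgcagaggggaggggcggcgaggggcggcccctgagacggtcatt
Hsph1, chr5:149636337-149636586, minus strand: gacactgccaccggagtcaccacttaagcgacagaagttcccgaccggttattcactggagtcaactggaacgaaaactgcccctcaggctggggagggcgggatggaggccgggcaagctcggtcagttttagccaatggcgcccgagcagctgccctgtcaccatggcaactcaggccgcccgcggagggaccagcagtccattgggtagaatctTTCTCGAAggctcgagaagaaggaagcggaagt
The promoter of Dnajb1 held 0 such pairs in these letters, which says nothing of heat shock factors there.

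Dnajb1 (Hsp40), the J-domain partner that hands substrates to Hsp70, ranged from 125.6 to 206.5 CPM (median 155.0) in young, from 105.6 to 145.2 (130.8) in saline and from 83.5 to 208.8 (125.5) in MCC950 libraries. The log2 fold change was -0.36 ± 0.18 with age (edgeR adjusted p = 0.157) and 0.08 ± 0.17 with MCC950 against saline (edgeR adjusted p = 0.788). Hsp90aa1, the inducible cytosolic Hsp90, ranged from 53.6 to 102.9 CPM (85.8) in young, from 55.6 to 89.6 (70.3) in saline and from 57.7 to 103.98 (72.7) in MCC950 libraries. Neither gene passed the test in any of the 3 comparisons, and their groups overlapped in each. For Hsp90aa1 the values were -0.17 ± 0.16 (edgeR adjusted p = 0.468) and 0.04 ± 0.15 (edgeR adjusted p = 0.882). The Hsp90aa1 count is also less certain because 58.5% of its transcript windows occur in other genes, with 51.5% in Gm12346.

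Digestion-sensitive genes were read beside the cytosolic members. Of 12 immediate early genes 0 were called in saline against young and 0 in MCC950 against saline libraries, by an adjusted p in edgeR or DESeq2 and by an unadjusted p. In MCC950 against young libraries edgeR called 2 lower (Fosb and Egr1), and an unadjusted p and DESeq2 each gave 3 lower, and Fos gave -0.30 (edgeR adjusted p = 0.0940). Fos had a median of 1247 CPM in young, 1060 in saline and 989.5 in MCC950 libraries. The medians of Jun were 861.7, 619.0 and 688.4 CPM, those of Egr1 1142, 910.3 and 823.7, and those of Atf3 406.8, 456.1 and 417.6 CPM. With the mean log2 level of these 12 genes as a covariate, 3 members not called in the simple fit changed their call or direction in the comparisons with young: Dnajb1 fell with age by 0.30 on the log2 scale (edgeR adjusted p = 0.0480) and Hspa5 in MCC950 against young libraries gave 0.39 (edgeR adjusted p = 0.0104), while Hsph1 there went to 0.04 (edgeR adjusted p = 0.855).

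Hspa5, which binds nascent proteins in the ER and holds the stress sensors inactive, was among the highest members per kilobase of exon and rose with MCC950. Its promoter is printed because it carries the ER stress element, searched on both strands as CCAAT, 9 bases of any kind and CCACG, in capitals. It held 1 copy, and 0.113% of the 32851 windows held any.
Hspa5, chr2:34771840-34772089, plus strand: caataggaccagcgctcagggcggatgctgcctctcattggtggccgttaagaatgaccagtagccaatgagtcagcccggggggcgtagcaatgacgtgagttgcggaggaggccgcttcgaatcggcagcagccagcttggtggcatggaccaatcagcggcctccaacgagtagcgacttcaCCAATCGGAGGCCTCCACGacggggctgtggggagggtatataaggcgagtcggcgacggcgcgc
Hspa5 ranged from 240.3 to 442.7 CPM (median 294.9) in young, from 221.9 to 311.3 (282.2) in saline and from 255.8 to 601.6 (393.8) in MCC950 libraries. Of the MCC950 libraries 6 of 8 lay above the whole saline range, and replicates 2 and 6 lay within it. The level in MCC950 libraries was 1.49-fold that in saline libraries (log2 fold change 0.57 ± 0.16, edgeR adjusted p = 0.0213). With age the value was -0.26 ± 0.17 (edgeR adjusted p = 0.286), and in MCC950 against young libraries it was 0.31 ± 0.17 (edgeR adjusted p = 0.151). The rise against saline lost its call without saline replicate 6 (0.54, edgeR adjusted p = 0.0573) and with podocyte markers as a covariate (0.46, edgeR adjusted p = 0.0566). With proximal tubule markers as a covariate the value against saline was 0.96 (edgeR adjusted p = 0.00224), and that against young libraries was 0.63 and passed (edgeR adjusted p = 0.00269).

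Hspd1 and Hspe1 form a head-to-head pair on chromosome 1 (GRCm38, 55077833-55088243 and 55088148-55091317) and are transcribed away from each other. RefSeq gives Hspd1 more than 1 start, the outermost of which lies within Hspe1, so that their first exons overlap and reads there cannot be assigned without strand. The stretch between the inner start of Hspd1 and that of Hspe1 is printed because both genes rose together and share it as promoter. It held 3 overlapping heat shock pairs, in capitals, which make 2 overlapping arrays of 3 alternating GAA and TTC units. Such an array was found in 0.466% of the 32851 windows.
Hspd1 and Hspe1, chr1:55087933-55088147, plus strand (strand of Hspe1): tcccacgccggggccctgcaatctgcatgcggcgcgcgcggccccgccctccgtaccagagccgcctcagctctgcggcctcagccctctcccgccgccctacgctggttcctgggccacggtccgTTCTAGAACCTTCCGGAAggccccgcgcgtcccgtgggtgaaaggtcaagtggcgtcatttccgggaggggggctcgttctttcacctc
Hspd1 ranged from 47.0 to 83.98 CPM (median 58.4) in young, from 46.9 to 71.8 (55.5) in saline and from 68.2 to 110.6 (83.1) in MCC950 libraries. Hspe1 ranged from 9.80 to 15.5 CPM (12.9) in young, from 11.5 to 15.9 (12.4) in saline and from 13.9 to 20.4 (17.5) in MCC950 libraries. For each gene 6 of 8 MCC950 libraries lay above every saline library, and young and saline libraries covered nearly the same range. Hspd1 was 1.51-fold higher in MCC950 than in saline libraries (log2 fold change 0.59 ± 0.12, edgeR adjusted p = 0.00473) and 1.41-fold higher than in young libraries (0.50 ± 0.13, edgeR adjusted p = 0.00481). Hspe1 was 1.34-fold higher than in saline (0.42 ± 0.10, edgeR adjusted p = 0.00952) and 1.35-fold higher than in young libraries (0.43 ± 0.11, edgeR adjusted p = 0.00356). With age Hspd1 gave -0.10 ± 0.13 (edgeR adjusted p = 0.641) and Hspe1 0.00 ± 0.11 (edgeR adjusted p = 0.981), with 95% intervals from -0.37 to 0.18 and from -0.22 to 0.23.

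Hspa9, on mouse chromosome 18, ranged from 77.8 to 128.6 CPM (median 94.1) in young, from 83.1 to 135.3 (109.1) in saline and from 114.4 to 192.4 (144.1) in MCC950 libraries. Of the MCC950 libraries 6 of 8 exceeded every saline library and 7 of 8 every young one. The level was 1.39-fold that of saline (log2 fold change 0.48 ± 0.12, edgeR adjusted p = 0.0146) and 1.52-fold that of young libraries (0.61 ± 0.13, edgeR adjusted p = 0.00128). With age the value was 0.13 ± 0.13 (edgeR adjusted p = 0.523). The 3 mitochondrial genes kept their calls against saline and against young libraries whichever of the 21 libraries was left out. Against saline, the value of Hspd1 then ran from 0.52 to 0.63, that of Hspe1 from 0.38 to 0.46 and that of Hspa9 from 0.40 to 0.53. Transcripts of other genes, on either strand, share 44.8% of the transcript windows of Hspd1, 44.8% of those of Hspe1 and 4.10% of those of Hspa9. The pseudogene Hspd1-ps3 alone holds 42.8% of the windows of Hspd1.

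**Figure D2:**
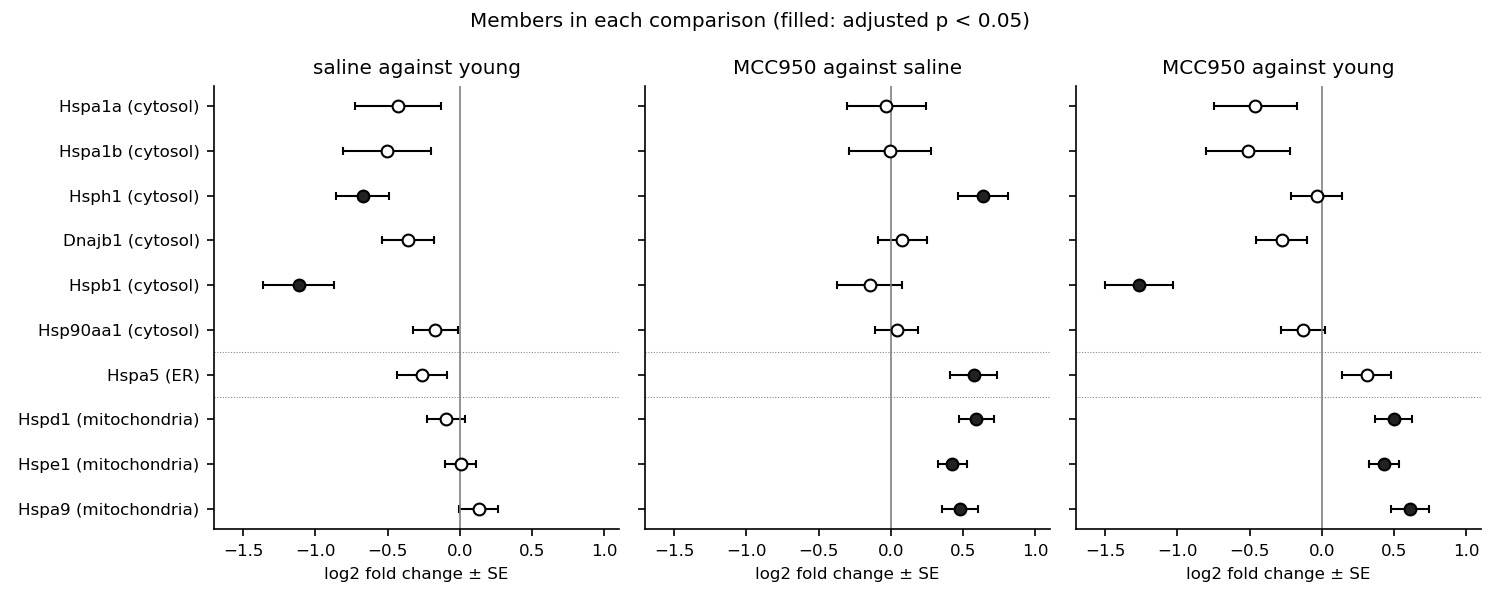
Log2 fold change of each gene (points, horizontal axis) with its standard error (bars) in saline against young, MCC950 against saline and MCC950 against young libraries, with filled points where the adjusted p in edgeR was under 0.05. Dotted lines divide cytosolic, ER and mitochondrial genes, and the 3 mitochondrial genes lie to the right of 0 in both comparisons of MCC950.

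The mitochondrial genes rose with MCC950 alongside markers of the proximal tubule, a segment rich in mitochondria. A correlation of these genes with the marker sum was not tested. These 12 markers ranged from 1991 to 4626 CPM in sum over saline libraries and from 2880 to 8606 CPM over MCC950 libraries, and MCC950 replicate 1 was highest for the markers, for Hspd1, for Hspe1 and for Hspa9. Young replicate 1 had the highest marker sum of its group, 7087 CPM, and also the highest Hspd1 and Hspa9, 83.98 and 128.6 CPM. Hspe1 was instead highest in young replicate 3 (15.5 CPM, marker sum 3078 CPM), beside 14.4 CPM in replicate 1. With the mean log2 level of the markers as a covariate, the difference between MCC950 and saline was 0.21 for Hspd1 (edgeR adjusted p = 0.168), 0.26 for Hspe1 (edgeR adjusted p = 0.198) and 0.06 for Hspa9 (edgeR adjusted p = 0.682), so none of the 3 kept its call. Hsph1 and Hspa5 kept theirs, and Hsp90aa1 gained one (0.46, edgeR adjusted p = 0.0375). Over all genes that fit called 431 of 16377 higher and 364 lower in MCC950 against saline, beside 1957 and 796 without the covariate. In MCC950 against young libraries Hspd1 lost its call in that fit (0.21, edgeR adjusted p = 0.0535), and Hspe1 and Hspa9 kept theirs. With podocyte markers as the covariate all 3 lost their calls against young libraries, at 0.16 for Hspd1 (edgeR adjusted p = 0.689), 0.22 for Hspe1 (edgeR adjusted p = 0.512) and 0.15 for Hspa9 (edgeR adjusted p = 0.686), and kept them against saline. The podocyte fit called 103 of 16377 genes higher and 240 lower in MCC950 against young, beside 3572 and 2705 without the covariate. In MCC950 against saline it called 2739 higher and 1304 lower. With age, the tubule covariate brought Hspa9 (0.22, edgeR adjusted p = 0.0105) and Dnajb1 (-0.43, edgeR adjusted p = 0.0422) past the threshold. A rise of mitochondrial chaperones within podocytes and more tubule RNA in the MCC950 fractions cannot be told apart by these values.

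Levels compared between genes need the exon length, and per kilobase of exon the order was nearly the same in each group. In saline libraries the median was 159.7 CPM per kilobase for Hspa1a, 157.7 for Hspa1b, 66.7 for Hspa5, 40.8 for Dnajb1, 25.3 for Hspa9, 20.99 for Hspd1, 17.9 for Hsp90aa1, 10.3 for Hspb1, 8.38 for Hspe1 and 4.09 CPM per kilobase for Hsph1. The inducible Hsp70 genes, which most unstressed tissues hold low, thus led the list even in saline libraries, and in young libraries Hspa1b reached 258.6 CPM per kilobase. The ratio of Hspa1b to the constitutive Hspa8 had a median of 2.18 in young, 1.95 in saline and 1.21 in MCC950 libraries by count, and overlapped between all groups. Bowtie2 does not align reads across introns, and Hspa1a and Hspa1b have none, so levels of the other genes may be understated beside these.

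Variation within groups was compared for 12 chosen pairs of genes, and no grouping of all members was computed. After group means were removed, log2 CPM of Hspa1a and Hspa1b correlated at Pearson's r = 0.996 and Spearman's rho = 0.987 over 21 libraries, in which shared reads have a part that was not tested. Hspa1b and Hsp90aa1 gave r = 0.839 and rho = 0.849 (permutation p = 4e-05 for both, adjusted 0.00012 over 12 pairs), with r = 0.947 in young, 0.732 in saline and 0.848 in MCC950 libraries and r = 0.766 without the 2 farthest libraries. Hspa1b and Dnajb1 gave r = 0.613 and rho = 0.647 (permutation p = 0.0092 and 0.00741, adjusted 0.0184 and 0.0148), and r = 0.549 without the 2 farthest. The pairs of Hspa1b with Hsph1 (r = 0.591, rho = 0.516) and with Hspb1 (r = 0.644, rho = 0.519) passed by r (permutation p = 0.0268 and 0.0322, adjusted 0.0402 and 0.0429) and not by rho (permutation p = 0.0421 and 0.047, adjusted 0.0627 for both), and fell to r = 0.487 and 0.508 without the 2 farthest libraries. Hspd1 varied with Hspa9 at r = 0.883 and rho = 0.812 (permutation p = 1e-05 and 3e-05, adjusted 4e-05 and 0.00012) and with Hspe1 at r = 0.715 and rho = 0.703 (permutation p = 0.00092 and 0.00069, adjusted 0.00221 and 0.00166). For Hspa5 and Hsp90b1, the Hsp90 of the ER, r was 0.883 and rho 0.875 (permutation p = 1e-05 for both, adjusted 4e-05 and 6e-05), where 1e-05 is the smallest p that 100000 permutations give.

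The 3 pairs across compartments differed in sign, and their difference from the pairs within compartments was not tested. Hspa1b and Hspd1 gave r = -0.502 and rho = -0.445 (permutation p = 0.0476 and 0.0712, adjusted 0.0571 and 0.0819), negative in each group, at -0.495 in young, -0.364 in saline and -0.636 in MCC950 libraries. Hspa5 and Hspa9 gave r = -0.511 and rho = -0.466 (permutation p = 0.0251 and 0.0447, adjusted 0.0402 and 0.0627), and r = -0.526 without the 2 farthest. Hspa1b and Hspa5 gave r = 0.466 and rho = 0.435, positive in each group (permutation p = 0.0716 and 0.0788, adjusted 0.0716 and 0.0819), and Hspa1b and Fos r = 0.439 and rho = 0.429 (permutation p = 0.0693 and 0.0819, adjusted 0.0716 and 0.0819).

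**Figure D3:**
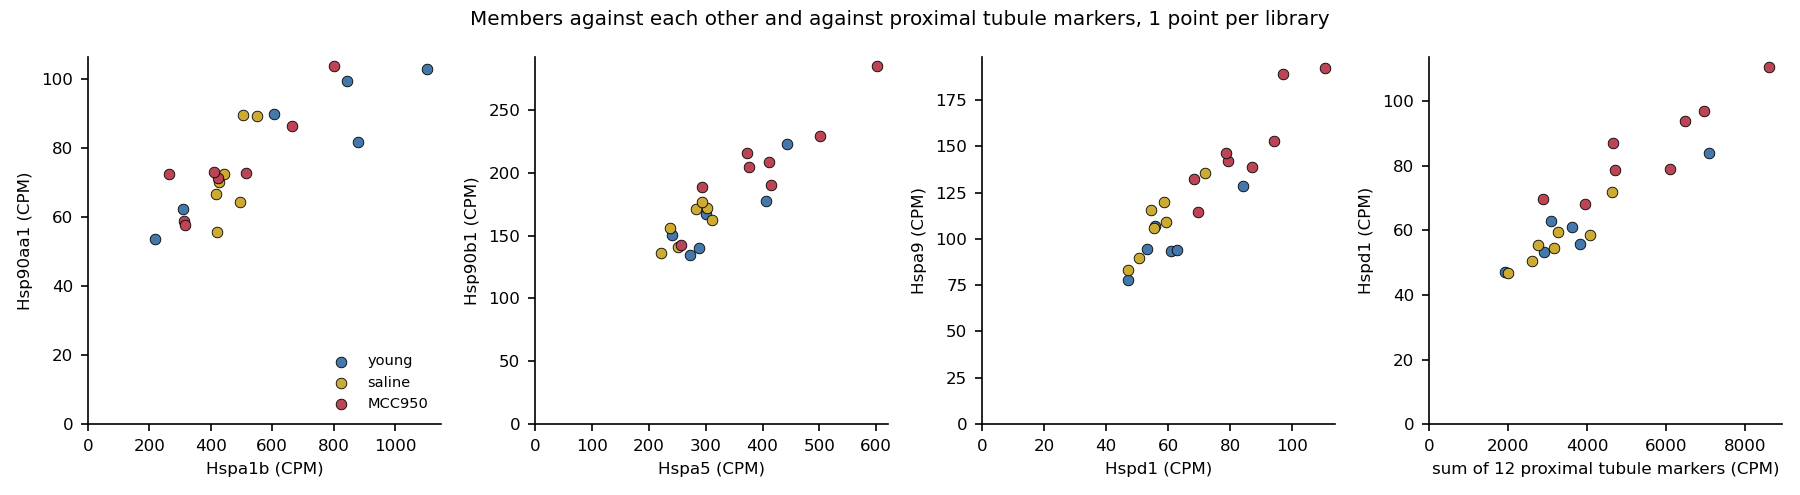
CPM of Hsp90aa1 against Hspa1b, of Hsp90b1 against Hspa5, of Hspa9 against Hspd1, and of Hspd1 against the sum of 12 proximal tubule markers, all axes linear from 0, with 1 point per library colored by group. Hspd1 rises with the tubule markers across all groups, and MCC950 replicate 1 holds the highest marker sum (8606 CPM) and the highest Hspd1 (110.6 CPM).

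Over 12263 genes with a mean of at least 1 log2 CPM, those whose residual pattern was most like Hspa1b over 21 libraries were Hspa1a (r = 0.996), Hspa1l (0.969), Ski (0.890), Zfp36l2 (0.873) and Map1s (0.853). Most like Hspa5 were Gm12696 (r = 0.934), Stip1 (0.891), Hsp90b1 (0.883), Tra2a (0.870) and Creld2 (0.864), of which Hsp90b1 and Creld2 encode ER proteins and Stip1 the cytosolic adaptor between Hsp70 and Hsp90. Most like Hspd1 were Rer1 (r = 0.943), Sypl2 (0.940), Me1 (0.934), Snx7 (0.931) and Pter (0.928). None of the last 5 is a mitochondrial chaperone.

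Beyond the 10 members, 72 further genes of the same systems were taken from lists by what their proteins do: 24 cytosolic chaperones and cochaperones, the 8 subunits of the CCT chaperonin, 16 ER genes, 12 mitochondrial chaperones and proteases, and 12 regulators. With age 5 of 72 rose and 15 fell, beside 12.2% higher and 12.4% lower over all genes tested. The median log2 fold change was -0.02, beside 0.02 over all genes. Falls lay mostly in the cytosolic list, where 9 of 24 fell and 1 rose with a median of -0.26. Hspb8, a small heat shock protein that works with Bag3 in selective autophagy, went from 8.70 ± 3.34 CPM (SD, n = 6) in young to 3.96 ± 0.557 (n = 7) in saline libraries (log2 fold change -1.14 ± 0.19, edgeR adjusted p = 0.000279), Dnajb4 fell by 0.56 on the log2 scale and Chordc1, an Hsp90 cochaperone, by 0.55. Dnajc7 rose by 0.41. Of the ER list 4 of 16 fell and 0 rose, led by Serpinh1, the collagen chaperone Hsp47, from 41.9 ± 14.3 to 22.1 ± 2.37 CPM (SD; log2 fold change -0.93 ± 0.15, edgeR adjusted p = 0.000237), Dnajb9 (-0.44) and Hspa13 (-0.41). In the mitochondrial list Htra2 (0.46) and Hscb (0.40) rose and the protease gene Yme1l1 fell (-0.46). Of the CCT subunits Cct2 rose (0.21), and of the regulators Herpud1 rose (0.34) and Hsf2 fell (-0.37), while Hsf1 stood at 0.01 ± 0.08. Markers of podocytes, endothelium and mesangium fell in the same comparison, as given above, and their part in these falls was not tested beyond the podocyte covariate, with which 0 of 72 were called in edgeR (without adjustment, 2 rises and 7 falls had p under 0.05). Over all genes that fit called 11 of 16377 higher and 1 lower.

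With MCC950 against saline, 34 of 72 rose and 0 fell (2 were lower at an unadjusted p under 0.05 and 1 in DESeq2), with a median of 0.23 beside 0.00 over all genes. The rises were 11 of 24 cytosolic genes, 7 of 8 CCT subunits, 9 of 16 ER genes and 7 of 12 mitochondrial genes, and 0 of 12 regulators were called in edgeR (DESeq2 called 0, and without adjustment 1 rise and 1 fall had p under 0.05). In the cytosol Fkbp4, an Hsp90 cochaperone, rose from 49.3 ± 5.53 to 78.8 ± 12.3 CPM (SD, n = 7 and 8; log2 fold change 0.68 ± 0.12, edgeR adjusted p = 0.00151), Hspa8, the constitutive Hsp70, by 0.55 and St13 by 0.50. In the ER Manf, which is secreted upon ER stress, rose from 21.1 ± 1.28 to 34.8 ± 11.01 CPM (SD; 0.72 ± 0.18, edgeR adjusted p = 0.0128), Creld2 by 0.70 and the nucleotide exchange factor Hyou1 by 0.62. Clpx (0.56), Clpp (0.43) and Dnaja3 (0.39) led the mitochondrial list, and Cct3 (0.33), Cct8 (0.29) and Cct5 (0.24) the chaperonin. With proximal tubule markers as a covariate 18 of 72 rose and 0 fell. That fit called 431 of 16377 genes tested higher and 364 lower, beside 1957 and 796 without the covariate. Without saline replicates 2, 3, 4 or 6 in turn 22, 21, 16 and 20 of the 72 were called. The share of all genes called in those fits was not computed.

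Against young libraries, 33 of 72 were higher and 9 lower in MCC950 libraries, beside 21.8% higher and 16.5% lower over all genes tested. The median was 0.27 beside 0.08 over all genes. With only these groups in the fit 21 were higher and 9 lower, beside 2526 and 2556 of 15817 genes tested. With the podocyte covariate the counts were 1 and 1. Over all genes the podocyte fit called 103 of 16377 higher and 240 lower. All 8 CCT subunits were higher, led by Cct8 (0.44), Tcp1 (0.38) and Cct3 (0.37). In the ER list 7 were higher, led by Creld2 (0.87), Manf (0.86) and Dnajb11 (0.34), and 3 were lower, namely Serpinh1 (-0.81), Dnajb9 (-0.59) and Hspa13 (-0.49). Of the mitochondrial list 7 were higher, led by Hscb (0.53), Clpp (0.52) and Grpel1 (0.37), and Yme1l1 was lower (-0.54). Of the cytosolic list 8 were higher, led by Hspbp1 (0.49), Dnajc7 (0.42) and Hspa8 (0.36), and 4 lower, led by Hspb8 (-1.11), Hspa2 (-0.49) and Cryab (-0.49). The regulators Herpud1 (0.45), Xbp1 (0.35) and Hsbp1 (0.34) were higher and Hsf2 lower (-0.32).

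**Figure D4:**
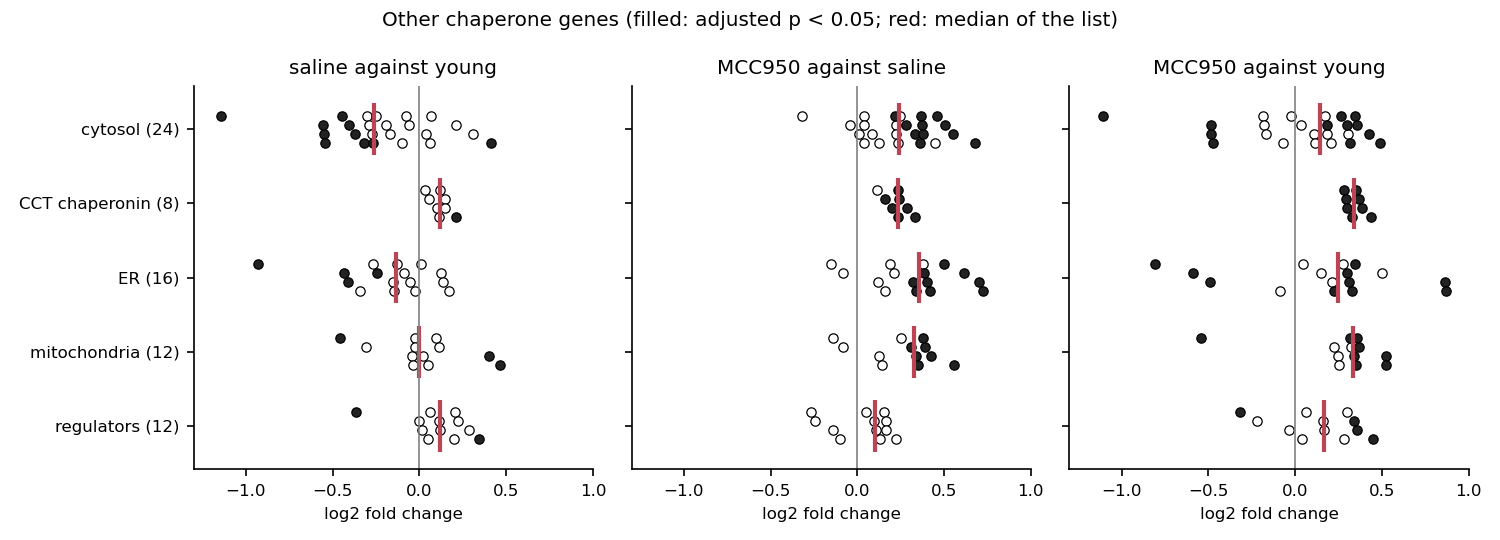
Log2 fold change (horizontal axis) of 72 further chaperone genes by list in the 3 comparisons, with filled points where the adjusted p in edgeR was under 0.05 and a red bar at the median of each list. Vertical offsets within a list only separate the points. In MCC950 against saline every filled point lies to the right of 0, and the regulators have none.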

How the data were processed

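The 21 tables hold read counts per gene. The authors trimmed reads with Trim Galore, aligned them to mm10 with Bowtie2 and deposited whole-number featureCounts counts. The annotation, strand setting and treatment of multiple alignments are not given in the sources used here. The authors' normalized table, which covers 20 of 21 libraries, was not used. Gene numbers were named from RefSeq (25275) and GENCODE (18), and 1886 stayed unnamed. Libraries were grouped by their labels. No pair of libraries within a group was a duplicate (lowest chi-square per degree of freedom 16.7), and pairs across groups were not checked. The p-values measure the spread between mice.

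All 3 groups were fitted together in edgeR 4.0.16 (R 4.3.3, filterByExpr, TMM, quasi-likelihood F test) on 16377 genes, with Benjamini-Hochberg adjustment over all of them and a threshold of 0.05. Results were recomputed under 12 alternatives, among them DESeq2 1.42.0, and without each library, and scripts were tested on simulated data. The members and lists were chosen with earlier results of these data known. Named from the further lists were up to 3 called genes of largest rise and fall per list and comparison, the 5 genes most like Hspa1b, Hspa5 and Hspd1, and Fos, Jun, Egr1, Atf3, Nphs1, Wt1 and Nlrp3. 1 further gene of that rule is not reported here. Fosb and Hsf1 were named after their values were seen. Figures were drawn with matplotlib 3.10.9.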

Additional observations from a re-analysis of the deposited data

How the results depend on the processing

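The calls of the 5 members that rose in MCC950 against saline and of the 2 that fell with age held with DESeq2, DESeq2 size factors, both other filters on low counts, only the compared groups in the fit, mitochondrial genes left out and equal depth, and no total of members or further genes called moved by over 1.5 times there. By direction, the 33 further genes higher in MCC950 against young were 21 with only the compared groups, and the 5 higher with age were 3 with DESeq2 size factors and at equal depth. The study's own threshold (unadjusted p under 0.05 and over 2-fold), applied here to the edgeR fit and by the study to DESeq2, gave 1, 0 and 1 members and 1, 0 and 1 further genes in saline against young, MCC950 against saline and MCC950 against young. The share of all genes that passed it was not computed. With podocyte markers as a covariate the counts at an edgeR adjusted p under 0.05 were 0 members and 0 further genes with age and 0 members and 2 further genes in MCC950 against young, while an unadjusted p under 0.05 gave 3 members with age and 2 in MCC950 against young. Over all 16377 genes that fit called 11 higher and 1 lower with age, and 103 and 240 in MCC950 against young. With proximal tubule markers the counts were 4 members with age, and 3 members and 18 further genes in MCC950 against saline. Over all 16377 genes the tubule fit called 2732 higher and 2304 lower with age, and 431 and 364 in MCC950 against saline.

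Deviations of same-numbered libraries correlated at -0.175 to 0.567 (saline against young), -0.26 to 0.539 (MCC950 against saline) and 0.00643 to 0.657 (MCC950 against young). In these comparisons 4 of 12, 3 of 14 and 4 of 12 libraries correlated best with their own number. The number expected by chance was not computed, so whether same-numbered libraries were paired was not tested. With the replicate block the further genes called in MCC950 against saline were 19, all higher. Over all 16191 genes of that fit 1711 were higher and 663 lower. Hspa5 lost its call there (0.46, edgeR adjusted p = 0.0635), Dnajb1 was -0.10 and Hsp90aa1 -0.024. In MCC950 against young the replicate block added calls of Dnajb1 (-0.54) and Hsp90aa1 (-0.29).

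Leaving out 1 library gave 1 to 2 members and 13 to 21 further genes with age, 4 to 5 and 16 to 40 in MCC950 against saline, and 4 to 5 and 32 to 44 in MCC950 against young. The share of all genes called was not computed for these fits, so the ranges are not particular to chaperone genes. The lowest with age came without young replicate 3 and the lowest with MCC950 against saline without saline replicate 6 (members) or 4 (further genes). Without young replicate 1, Hspa1b passed in MCC950 against young (-0.69, edgeR adjusted p = 0.0391).

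Members not called in a comparison turned their sign there as follows on the log2 scale, and the cause was not tested. With podocyte markers as a covariate, Hspa1a (0.71), Hspa1b (0.62), Dnajb1 (0.31), Hsp90aa1 (0.69), Hspa5 (0.20), Hspe1 (-0.27) and Hspa9 (-0.52) turned with age, Hspa1a (0.38), Hspa1b (0.32), Hsph1 (0.33), Dnajb1 (0.21) and Hsp90aa1 (0.50) in MCC950 against young, and Dnajb1 (-0.10) and Hsp90aa1 (-0.19) in MCC950 against saline. With proximal tubule markers, Hspa1a (0.55), Hspa1b (0.56) and Hspb1 (0.072) turned in MCC950 against saline, and Hspa1a (0.069), Hspa1b (0.0084), Hsph1 (0.18) and Hsp90aa1 (0.21) in MCC950 against young. With immediate early genes, Hspa1a (0.011) and Hspa1b (0.038) turned in MCC950 against saline and Hsph1 (0.035) in MCC950 against young. Hspe1 with age was -0.018 with DESeq2, -0.017 with its size factors and -0.0028 at equal depth. With 1 library left out, Hspd1 ran from -0.17 to 0.020 and Hspe1 from -0.076 to 0.062 with age. In MCC950 against saline Hspa1a then ran from -0.19 to 0.045, Hspa1b from -0.17 to 0.079, Dnajb1 from -0.039 to 0.15 and Hsp90aa1 from -0.044 to 0.092, and Hsph1 in MCC950 against young ran from -0.15 to 0.086.

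The lowest count of any member in a library was 227. At equal depth 16 further genes were called with age and 25 in MCC950 against saline, beside 20 and 34 in the main fit. Over all 14819 genes tested at equal depth, 1662 were higher and 1698 lower with age. In MCC950 against saline 1515 were higher and 576 lower. Further limits are that the young mice were not injected, podocyte markers fell with age and tubule markers rose with MCC950. The strand and multiple alignments of the counting are unknown, and reads of Hspa1a and Hspa1b are shared.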
